A study of Homo sapiens with 2 samples.

Results

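The genes described here are 32 aminoacyl-tRNA synthetases and 16 genes of the amino acid stress response, 48 in all, in a series with 10548 genes listed in both libraries, 21 of the 48 among them. They were taken by name: 19 cytosolic synthetases, 13 mitochondrial synthetases, 8 genes of amino acid and one-carbon synthesis, and 8 stress regulators or their targets. RNA-seq was carried out on the human cell line HAL-01, labelled pre-B acute lymphoblastic leukaemia, with 2 libraries in all. The AG library came from a culture kept for 24 h with 0.8 mM of 1,5-AG, the glucose analogue 1,5-anhydroglucitol, and how the Control culture was kept is not stated in the labels or the design. With 1 library per group no test between the cultures was possible, and the 95% counting intervals below cover counting error and leave out any spread between cultures.

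Each aminoacyl-tRNA synthetase joins an amino acid to its tRNA, and most animals encode separate enzymes for the cytosol and for the mitochondrial matrix. When a tRNA stays uncharged, the kinase GCN2 phosphorylates the initiation factor eIF2, bulk translation slows and the transcription factor ATF4 is made. ATF4, paired with a C/EBP protein, binds C/EBP-ATF response elements and switches on genes of amino acid synthesis, amino acid import and cytosolic tRNA charging, and other stresses that act through eIF2 reach the same genes.

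The core of that element, TGATGNAA, was searched on both strands of RefSeq promoters of GRCh38.p14, each running from 250 bases before to 50 bases after a gene's start. The promoters of 40 members were matched by symbol, and LARS1, VARS1, YARS1, AARS2, VARS2, PSPH, SHMT2 and ALDH1L2 had no entry. The motif was present for 7 of 16 cytosolic synthetases, 1 of 11 mitochondrial synthetases, 1 of 5 synthesis genes and 1 of 8 stress genes, against 4.46% of all 27305 genes and 3.62% of all 35116 promoter windows. A match is a description of letters and not a binding site. The windows below, 30 bases each on the strand of the gene, are shown because they hold the element that ATF4 is known to bind. Capitals mark the motif, which reads TGATGNAA or, where it lies on the other strand, TTNCATCA.
AARS1: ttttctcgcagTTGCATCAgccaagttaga
CARS1: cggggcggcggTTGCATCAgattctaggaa
GARS1: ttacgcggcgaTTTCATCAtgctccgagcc
IARS1: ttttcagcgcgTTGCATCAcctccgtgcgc
MARS1: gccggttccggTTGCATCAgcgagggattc
NARS1: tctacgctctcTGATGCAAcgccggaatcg
TARS1: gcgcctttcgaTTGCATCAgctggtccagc
YARS2: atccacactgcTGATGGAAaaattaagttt
ASNS: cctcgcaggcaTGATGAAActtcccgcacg
CHAC1: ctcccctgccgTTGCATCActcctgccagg

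Those of the 4 motif-bearing synthetases with values in both libraries lie at chr11:3057407-3057436 (CARS1, minus strand), chr7:30594834-30594863 (GARS1, plus strand), chr9:92293692-92293721 (IARS1, minus strand) and chr18:57621804-57621833 (NARS1, minus strand). In CARS1 the motif spans the start of the gene, in GARS1 and IARS1 it lies just before it, and in NARS1 it lies just after it. The others lie at chr16:70289675-70289704 (AARS1, minus strand), chr12:57488053-57488082 (MARS1, plus strand), chr5:33440956-33440985 (TARS1, plus strand), chr12:32756076-32756105 (YARS2, minus strand), chr7:97872458-97872487 (ASNS, minus strand) and chr15:40953251-40953280 (CHAC1, plus strand).

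**Figure D1:**
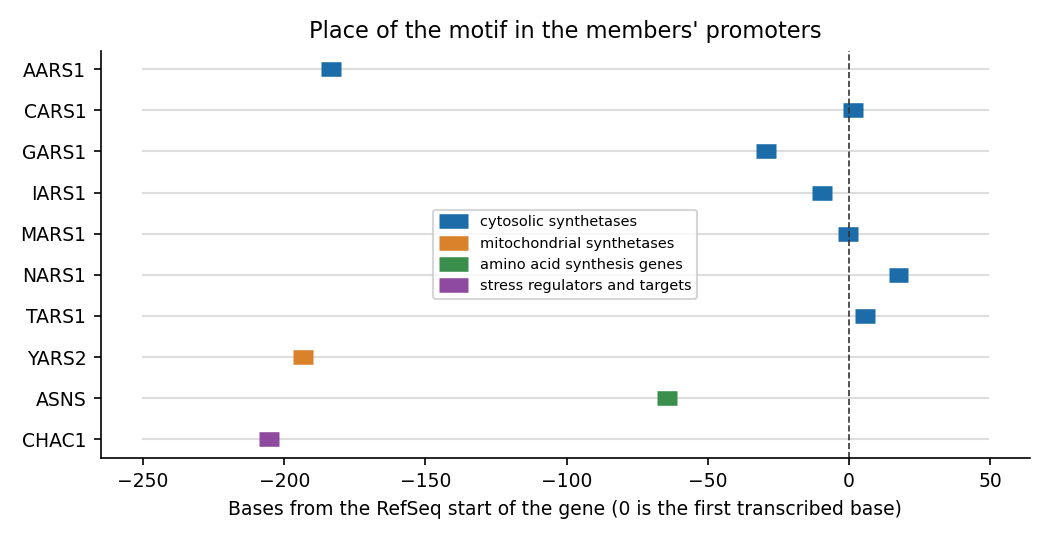
Place of the motif TGATGNAA, on either strand, in the promoters of the 10 members that hold it. The x axis is the distance in bases from the RefSeq start, grey lines are the searched window and coloured blocks are the motif. In AARS1, YARS2 and CHAC1 it lies between positions -209 and -180, in ASNS between -68 and -61, and in the other 6 between -33 and 21.

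Both files list no zeros, so a gene without a value is not read as unexpressed. Values were present in both libraries for 21 members and in AG only for 3. The other 24 had no value in either library and were not analysed here. The 24 were AARS1, FARSA, FARSB, MARS1, RARS1, SARS1, TARS1, VARS1 and WARS1 of the cytosolic enzymes, AARS2, HARS2, IARS2, MARS2, RARS2, VARS2 and YARS2 of the mitochondrial ones, the serine and glycine enzymes PHGDH, PSPH and SHMT2, and ATF4, TRIB3, CHAC1, VLDLR and STC2. Of the 21, 20 had a mean of at least 1 FPKM (fragments scaled by gene length and by the library's total) and are called expressed. The exception was CTH, the cystathionine lyase of cysteine synthesis, at 0.502 FPKM in AG and 0.663 FPKM in Control (18 and 26 fragments).

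The steps between low FPKM values implied totals of 14857372 fragments for AG and 16240451 for Control, and expressed members rested on 122 to 9411 fragments in AG and 111 to 9446 in Control. The marker genes did not match the label pre-B. Of 14 markers of B cell precursors, 6 were listed in AG and 9 in Control, with summed levels of 3.28 FPKM in AG and 2.88 FPKM in Control. Among them CD79A, a subunit of that lineage's antigen receptor, had 0.351 FPKM in AG and 0.275 FPKM in Control. The 7 listed markers of monocytes and granulocytes, of 13, summed to 497 FPKM in AG and 952 FPKM in Control, and single genes among them differed in direction, CTSG having 194 FPKM in AG against 743 FPKM in Control and ITGAM 8.30 FPKM in AG against 1.55 FPKM in Control. Markers of T and NK cells were represented by NKG7 alone, at 10.3 FPKM in AG and 17.2 FPKM in Control, and the listed erythroid and stromal markers were below 0.1 FPKM. The part of these differences in the values below was not tested, and in bulk RNA fewer cells of a type and less RNA per cell cannot be told apart.

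The main observation was small differences throughout. None of the 20 expressed members was 1.5-fold higher in AG and none was 1.5-fold lower, on the scale log2((AG FPKM + 1)/(Control FPKM + 1)). Over all 5528 expressed genes 3.6% were at least 1.5-fold higher and 3.33% at least 1.5-fold lower. The members ran from -0.11 for WARS2 to 0.27 for ALDH1L2, around a median of 0.06, while all expressed genes had a median of -0.03 with quartiles at -0.16 and 0.10. Of the 20 members 14 were above 0, against 43.2% of all expressed genes.

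**Figure D2:**
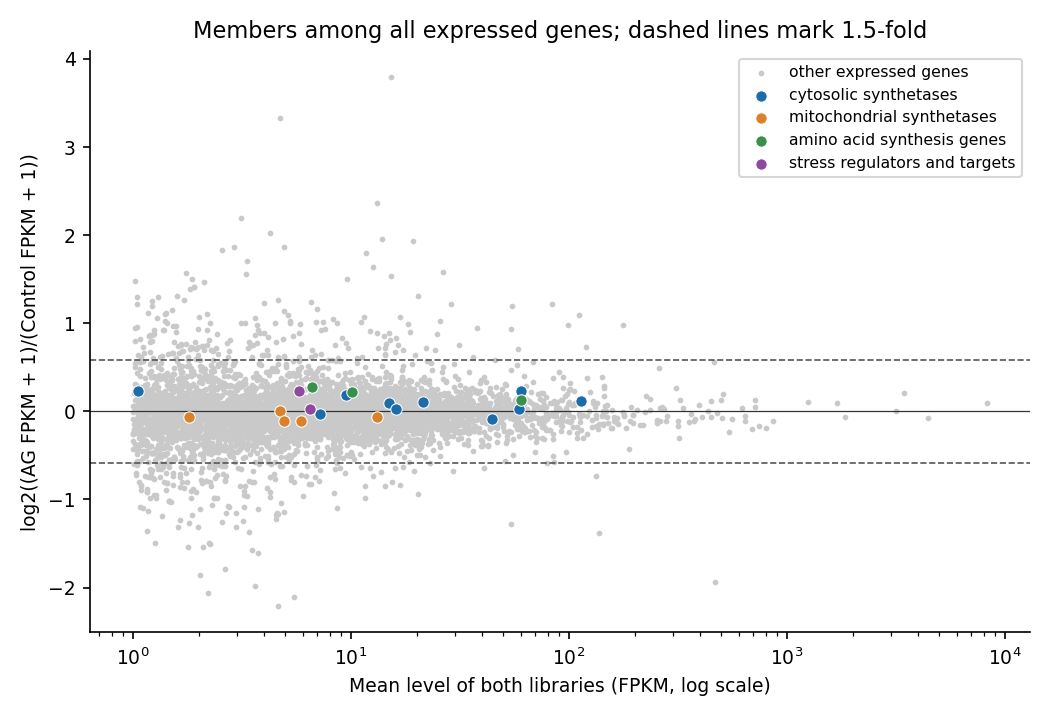
Log2 ratio of AG over Control, with 1 FPKM added to each value, against the mean level of both libraries in FPKM for 5528 expressed genes. Coloured points are the 20 expressed members by group and dashed lines mark 1.5-fold. All members lie between the dashed lines, from -0.11 to 0.27.

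The groups differed slightly by role. The median log2 ratio was 0.10 for 10 cytosolic synthetases, -0.07 for 5 mitochondrial synthetases and 0.22 for 3 synthesis genes, and the stress genes ATF5 and DDIT3 had 0.02 and 0.23. Of the cytosolic enzymes 8 were above 0 and 2 below, of the mitochondrial enzymes 1 was above and 4 below, and all 3 synthesis genes were above. Over all expressed genes 43.2% were above 0, and the median was -0.03. The ranges overlapped, from -0.08 to 0.23 for cytosolic and from -0.11 to 0.01 for mitochondrial enzymes. No sign changed under the other scalings or pseudocounts tried.

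The counting intervals of the plain FPKM ratio separated 10 members from a ratio of 1. For 9 the interval lay above 1, namely EPRS1, NARS1, IARS1, YARS1, GARS1, CARS1, PSAT1, MTHFD2 and ALDH1L2, and for QARS1 it lay below. Over all expressed genes whose fragment numbers could be recovered, 16.8% had an interval above 1 and 23% below. The members were sequenced more deeply than most, with a median of 1401.5 fragments in AG and 1458.5 in Control against 461 in AG and 512 in Control over all. Among genes with at least 1000 fragments in each library, 7 of 11 members were above 1 and 1 was below, against 26.5% and 32% of 1562 genes.

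**Figure D3:**
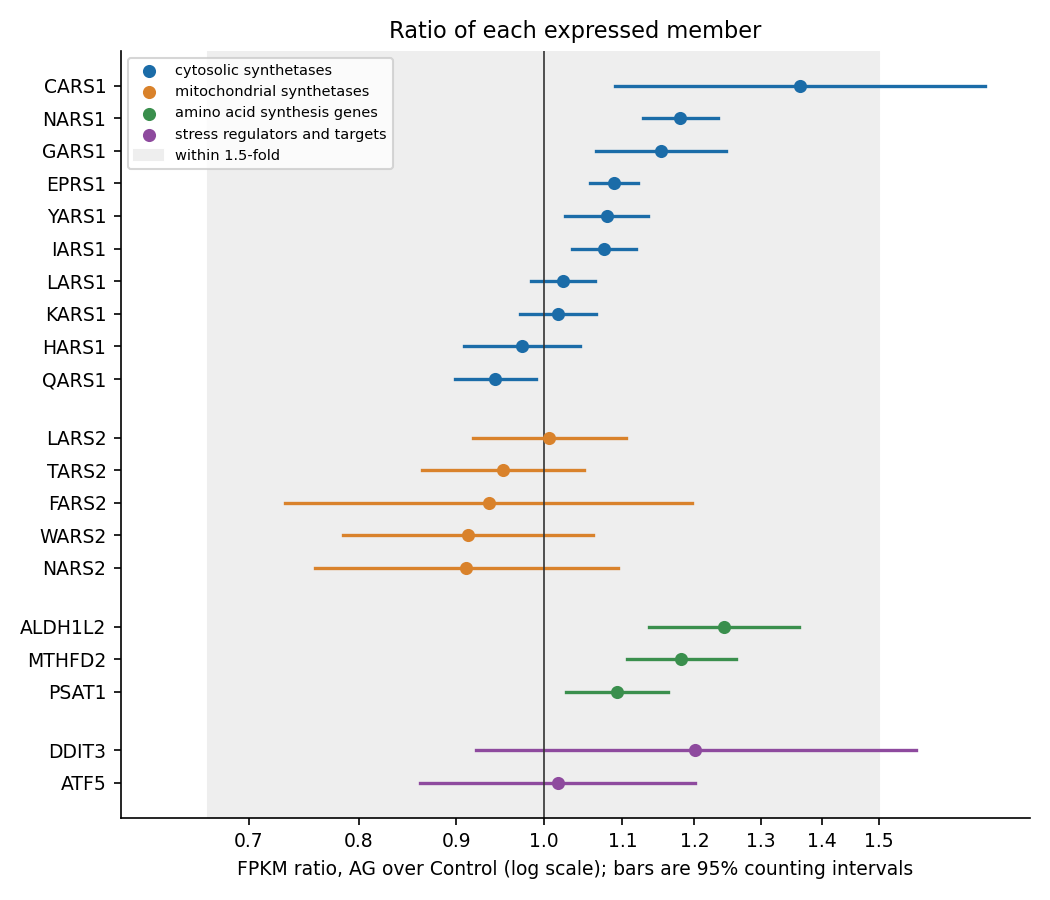
FPKM ratio of AG over Control on a log axis for the 20 expressed members, grouped by role, with bars for the 95% counting interval and grey shading for ratios within 1.5-fold. The intervals of 6 cytosolic synthetases and of all 3 synthesis genes lie above 1, that of QARS1 lies below 1, and those of all 5 mitochondrial synthetases include 1.

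Several cytosolic synthetases are held in the multisynthetase complex, and the 5 of these with values had ratios from 0.943 to 1.09. The division by complex was made after the values were seen. EPRS1, the fused enzyme for glutamate and proline and the highest of the members with values, had 119 FPKM in AG and 109 FPKM in Control, a ratio of 1.09 (95% counting interval 1.06 to 1.12). KARS1, the lysine enzyme of both cytosol and mitochondria, had 59.6 FPKM in AG and 58.5 FPKM in Control, a ratio of 1.02 (0.972 to 1.07). QARS1, which charges glutamine, had 43.0 FPKM in AG and 45.6 FPKM in Control, a ratio of 0.943 (0.898 to 0.991). It was the single cytosolic enzyme whose interval lay below 1. LARS1, the leucine enzyme, had 16.2 FPKM in AG and 15.8 FPKM in Control, a ratio of 1.02 (0.984 to 1.06). IARS1, which charges isoleucine, had 15.5 FPKM in AG and 14.4 FPKM in Control, a ratio of 1.08 (1.03 to 1.12).

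The 5 cytosolic enzymes outside the complex had ratios from 0.974 to 1.36. NARS1, the asparagine enzyme, had 65.1 FPKM in AG and 55.2 FPKM in Control, a ratio of 1.18 (95% counting interval 1.13 to 1.23). GARS1, which serves glycine in both compartments, had 10.2 FPKM in AG and 8.81 FPKM in Control, a ratio of 1.15 (1.07 to 1.25). CARS1, for cysteine, had 1.22 FPKM in AG and 0.896 FPKM in Control, a ratio of 1.36 (1.09 to 1.71). It was the lowest of the cytosolic enzymes with values and rested on 182 fragments in AG and 146 in Control. YARS1, for tyrosine, had 22.3 FPKM in AG and 20.7 FPKM in Control, a ratio of 1.08 (1.03 to 1.14). HARS1, for histidine, had 7.09 FPKM in AG and 7.28 FPKM in Control, a ratio of 0.974 (0.908 to 1.05). The libraries were stranded, but no source used here gives the strand setting of the counting. Whether reads from genes that overlap on opposite strands were counted apart is therefore not known. HARS1 overlaps HARS2 in this way by 437 bases, CARS-AS1 covers 21.6% of CARS1, C12orf45 covers 84.0% of ALDH1L2, AC006030.1 covers 31.4% of MTHFD2 and AC011452.1 covers 100% of ATF5.

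The promoter motif shown above can be set beside the ratios of the cytosolic enzymes. The 4 expressed enzymes whose promoter held it, CARS1, GARS1, IARS1 and NARS1, had log2 ratios from 0.10 to 0.23. The 4 whose promoter held no match, EPRS1, HARS1, KARS1 and QARS1, ran from -0.08 to 0.12, and the 2 sets overlapped at IARS1 and EPRS1. LARS1 and YARS1 had no promoter entry, and this split was not tested. CARS1, GARS1 and NARS1, and also KARS1, TARS2 and WARS2, have pseudogenes of the same name, so their values are uncertain, and the 6 cytosolic enzymes without one had a median of 0.06. Across all expressed genes matched, 101 with the motif had a median of -0.04 and 3727 without it had -0.03.

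The mitochondrial synthetases lay close to all expressed genes, with a median log2 ratio of -0.07 against -0.03. Of the 5, 4 were below 0, and of all expressed genes 43.2% were above 0. TARS2, for threonine, had 12.8 FPKM in AG and 13.5 FPKM in Control, a ratio of 0.952 (95% counting interval 0.864 to 1.05). WARS2, for tryptophan, had 5.61 FPKM in AG and 6.14 FPKM in Control, a ratio of 0.913 (0.784 to 1.06). NARS2, for asparagine, had 4.71 FPKM in AG and 5.17 FPKM in Control, a ratio of 0.911 (0.758 to 1.09). All 5 intervals included 1, so a difference was not detectable at this depth. LARS2, for leucine, had 4.76 FPKM in AG and 4.72 FPKM in Control, a ratio of 1.01 (0.918 to 1.10). FARS2, for phenylalanine, had 1.74 FPKM in AG and 1.86 FPKM in Control, a ratio of 0.936 (0.731 to 1.20). SARS2, for serine, was listed in AG only, at 0.0217 FPKM, and 99.1% of its span is shared with AC011455.2 on the same strand.

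For 3 amino acids both the cytosolic and the mitochondrial enzyme had values in both libraries, and the ratio of their ratios was taken with an exact conditional 95% interval from the fragment numbers. For asparagine the ratio of NARS1 was 1.29 times that of NARS2 (1.07 to 1.56). For cysteine the ratio of CARS1 was 1.41 times that of CARS2 (1.11 to 1.79), CARS2 not being among the 48 genes and having 7.40 FPKM in AG and 7.63 FPKM in Control. For leucine the quotient of LARS1 and LARS2 was 1.02 (0.919 to 1.12), an interval that includes 1. The quotient was beyond counting error for asparagine and cysteine and not for leucine. NARS1 and CARS1 have pseudogenes of the same name, and CARS-AS1 covers 21.6% of CARS1 on the opposite strand. Also on the opposite strand, AP003110.1 covers 18.3% of NARS2, LARS2-AS1 15.9% of LARS2 and AC091887.1 10.6% of LARS1. All 3 quotients are therefore uncertain. The fragment numbers of NARS2 also rest on the gene length that was chosen.

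**Figure D4:**
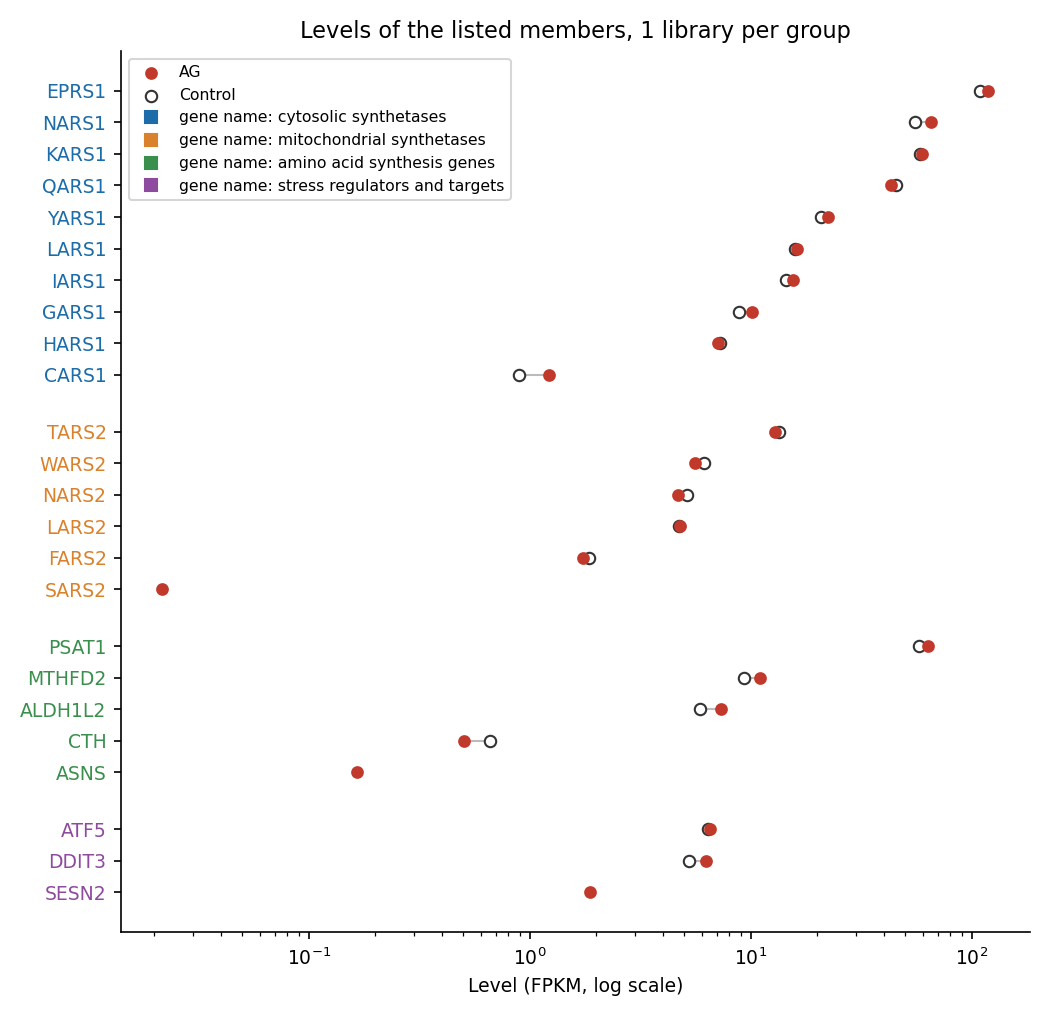
Level in FPKM on a log axis of the 24 members with a value, AG as filled and Control as open points, with gene names coloured by group. EPRS1 is highest at 119 FPKM in AG and 109 FPKM in Control, and SARS2, ASNS and SESN2 have an AG point only.

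Cytosolic enzymes were listed at higher levels than mitochondrial ones, but the size of that gap depends on gene length. The median level was 19.3 FPKM in AG and 18.3 FPKM in Control for the cytosolic enzymes, and 4.76 FPKM in AG and 5.17 FPKM in Control for the mitochondrial ones. The fragment numbers imply that the authors divided IARS1 by 22418 bases, where its exons in GENCODE 29 cover 7401 bases. The implied length was at least 1.5 times the annotated one for 6 of the 20 members, IARS1, LARS1, MTHFD2, GARS1, LARS2 and HARS1, against 3.73% of all expressed genes with a pair. With all its fragments assigned to the GENCODE 29 exons, IARS1 had 46.9 FPKM in AG and 43.6 FPKM in Control. Fragments counted outside those exons, if any, would make levels on this scale too high. On that scale the cytosolic median was 42.1 FPKM in AG and 42.0 FPKM in Control, and the mitochondrial median 5.58 FPKM in AG and 6.11 FPKM in Control. The ratios of AG to Control do not depend on this length.

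The genes of amino acid and one-carbon synthesis were slightly higher in AG wherever they were expressed. ALDH1L2, the mitochondrial formyltetrahydrofolate dehydrogenase, had 7.32 FPKM in AG and 5.88 FPKM in Control, a ratio of 1.24 (95% counting interval 1.14 to 1.36). MTHFD2, which oxidises one-carbon units in mitochondria, had 11.0 FPKM in AG and 9.29 FPKM in Control, a ratio of 1.18 (1.11 to 1.26). PSAT1, the aminotransferase of serine synthesis, had 63.3 FPKM in AG and 57.9 FPKM in Control, a ratio of 1.09 (1.03 to 1.16). MTHFD2 and PSAT1 have pseudogenes with which reads can be shared, 7 and 4 by name in GENCODE 29, so their values are uncertain. ASNS, asparagine synthetase and a classical ATF4 target, was listed in AG only at 0.165 FPKM, or about 10.9 fragments, and GENCODE 29 places AC079781.5 over 100% of it on the same strand. Whether reads were lost to that overlap was not tested.

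Of the stress regulators, 2 could be compared. DDIT3, which encodes the stress factor CHOP, had 6.28 FPKM in AG and 5.23 FPKM in Control, a ratio of 1.20 (95% counting interval 0.921 to 1.57). It rested on 122 fragments in AG and 111 in Control, and AC022506.1 covers 53.8% of it on the same strand. ATF5, a relative of ATF4, had 6.54 FPKM in AG and 6.43 FPKM in Control, a ratio of 1.02 (0.861 to 1.20). Neither interval excluded 1. SESN2, a leucine sensor that restrains mTORC1, was listed in AG only, at 1.87 FPKM, and no fold is given because its missing Control value is not a 0.

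Of 18 genes of eIF2 control 8 were expressed (median log2 ratio -0.03). Over all expressed genes 3.6% were at least 1.5-fold higher and 3.33% at least 1.5-fold lower. Among the 8, 1 was at least 1.5-fold higher and 0 were lower. That gene was CEBPB, a C/EBP factor of stress and of myeloid cells, at 9.63 FPKM in AG and 4.25 FPKM in Control, a ratio of 2.26 (95% counting interval 1.82 to 2.82). Next was PPP1R15B, a subunit of the eIF2 phosphatase, at 50.4 FPKM in AG and 46.2 FPKM in Control. The lowest were OMA1, the mitochondrial protease that relays stress to eIF2, at 3.04 FPKM in AG and 4.11 FPKM in Control, a ratio of 0.740 (0.605 to 0.904), and EIF2B2, a subunit of the eIF2 exchange factor, at 5.13 FPKM in AG and 6.07 FPKM in Control, a ratio of 0.844 (0.741 to 0.962). The kinases EIF2AK1 and EIF2AK2 had ratios of 0.978 and 0.977. EIF2AK4, which encodes GCN2, had no value in either library and was not analysed here. Of 12 partners of the synthetases 5 were expressed and all were within 1.5-fold (median 0.00), from GATB and SEPSECS at log2 ratios of -0.10 and -0.01 to XPOT and AIMP1 at 0.02 each. Of 6 further synthetases 2 were expressed, both within 1.5-fold, and CARS2 had a log2 ratio of -0.04.

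Of 16 known targets of ATF4 outside the 48 genes 8 were expressed and 1 was at least 1.5-fold higher (median log2 ratio -0.02). The share at least 1.5-fold higher was 3.6% over all expressed genes. The counting interval lay above 1 for 3 and below 1 for 0, and it included 1 for the 5 genes with log2 ratios below 0. Over all expressed genes with recovered fragment numbers, 16.8% had an interval above 1 and 23% below. With 8 genes the counts are small, and they were not tested against these shares. HERPUD1, which acts in the disposal of misfolded proteins of the endoplasmic reticulum, had 19.7 FPKM in AG and 10.2 FPKM in Control, a ratio of 1.94 (95% counting interval 1.78 to 2.11). GOT1, the cytosolic aspartate aminotransferase, had 6.69 FPKM in AG and 4.17 FPKM in Control, a ratio of 1.61 (1.31 to 1.97) and a log2 ratio of 0.57 with the pseudocount. VEGFA, the vascular growth factor, had 2.15 FPKM in AG and 1.40 FPKM in Control, a ratio of 1.54 (1.34 to 1.78) and a log2 ratio of 0.40 with the pseudocount. The lowest were PYCR1, a proline enzyme, and SESN1, with log2 ratios of -0.07 and -0.05. Of 10 amino acid transporters 4 were expressed and split evenly. SLC7A1, an arginine carrier, and SLC1A5, a glutamine carrier, had log2 ratios of 0.15 and 0.14, and SLC1A4 and SLC3A2 had -0.36 and -0.27. SLC1A4, a carrier of alanine and serine, had 10.5 FPKM in AG and 13.8 FPKM in Control, a ratio of 0.765 (0.708 to 0.828). The motif was in the promoters of 7 expressed genes of these further lists, HERPUD1, GOT1, SLC7A1, SLC1A5 and PPP1R15B with log2 ratios above 0 and SLC3A2 and SLC1A4 with log2 ratios below 0. The windows of HERPUD1, GOT1 and SLC1A4 are shown as examples, chosen after their values were seen, since these genes lie at the ends of that range, at chr16:56931955-56931984 (plus strand), chr10:99430804-99430833 (minus strand) and chr2:64989381-64989410 (plus strand) of GRCh38.p14.
HERPUD1: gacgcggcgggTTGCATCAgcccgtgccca
GOT1: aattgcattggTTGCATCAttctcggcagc
SLC1A4: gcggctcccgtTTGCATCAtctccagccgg

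Of 14 further enzymes of serine, one-carbon and glutathione metabolism 4 were expressed and all were within 1.5-fold (median log2 ratio 0.24). GCLM, of glutathione synthesis, had 25.8 FPKM in AG and 21.5 FPKM in Control. GLUL, the glutamine synthetase, was the lowest of the list at 31.8 FPKM in AG and 38.0 FPKM in Control, a ratio of 0.837 (95% counting interval 0.809 to 0.866).

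**Figure D5:**
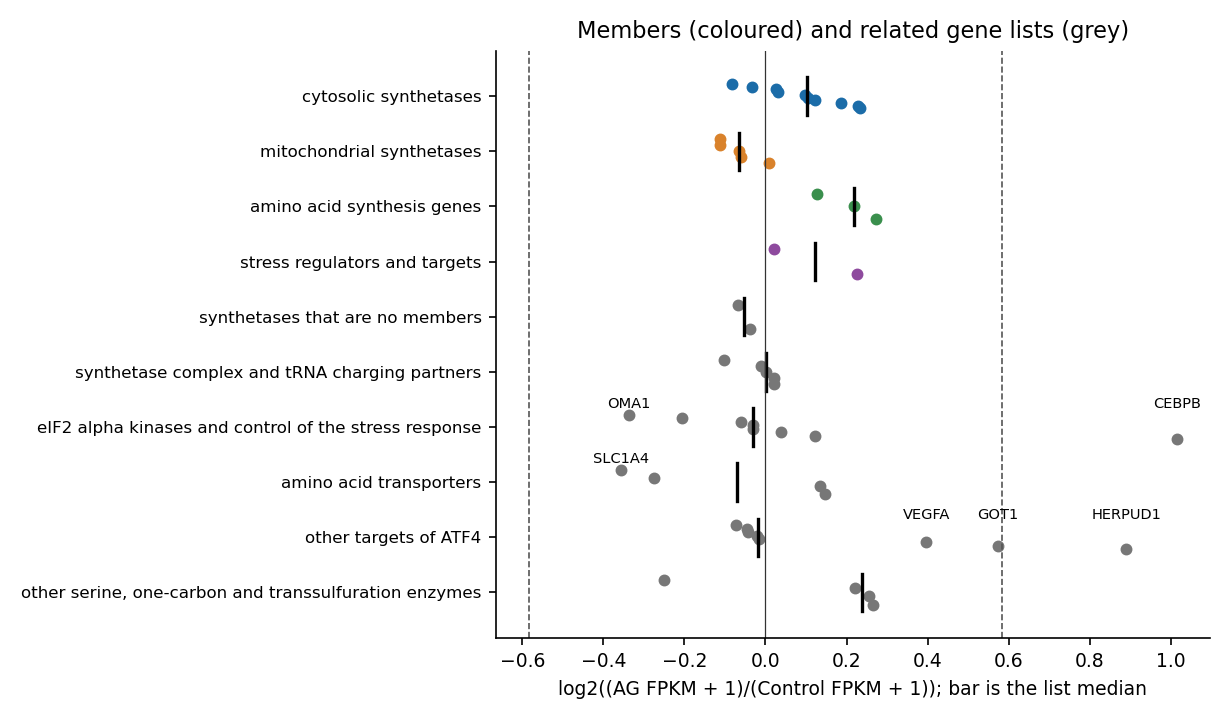
Log2 ratio of AG over Control, with 1 FPKM added, for expressed genes of the 4 member groups (coloured) and 6 related lists (grey). Each point is a gene, black bars are list medians and dashed lines mark 1.5-fold. CEBPB at 1.02 and HERPUD1 at 0.89 lie past 1.5-fold, and the mitochondrial synthetases lie between -0.11 and 0.01.

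Among members whose counting interval lay above 1, the 4 with the largest log2 ratios are protein-coding genes, placed here by GENCODE 29 on GRCh38. On the minus strand are ALDH1L2 (ENSG00000136010; chromosome 12, 105019784 to 105084577), CARS1 (ENSG00000110619; chromosome 11, 3000922 to 3057613) and NARS1 (ENSG00000134440; chromosome 18, 57600656 to 57622213). MTHFD2 (ENSG00000065911; chromosome 2, 74198562 to 74217565) is on the plus strand. Their values count whole genes and do not separate exons or isoforms.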

How the data were processed

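The authors deposited 1 FPKM value per gene and library. Per the submitters' processing notes, the tools were Trimmomatic, HISAT2, Cufflinks and HTSeq, of unstated version, and the build was hg38. Per the labels' protocols, RNA was extracted with Trizol and TruSeq Stranded mRNA libraries were made. No source used here gives the annotation, strand setting or filters. Each file held exactly 10000 distinct values.

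Library totals came from genes with a single transcript in GENCODE 29, where FPKM times exon length gave whole fragments, within 0.01, for 88.1% (AG) and 88.4% (Control) of genes. The fragment pair of a gene was the one whose integer length lay closest to the GENCODE 29 exon length, and 99.4% of expressed genes had one. For NARS2, PSAT1 and CTH a smaller pair at a shorter length fits as well. Their fragment numbers and the widths of their intervals therefore rest on this choice. Ratio intervals are exact Clopper-Pearson. Fragments can share a molecule, so intervals can be too narrow.

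The members, the lists and the motif were chosen with earlier results of these data known. Every member was named or counted, as were the 2 highest and 2 lowest expressed genes of each further list, apart from some that are not reported here. Steps were tested on simulated data. Alternatives were other pseudocounts, filters, scalings, thresholds and leaving out genes with named pseudogenes. The software was matplotlib 3.10.9, pandas 2.3.3, scipy 1.17.1 and numpy 2.4.6 under Python 3.11.15.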

Additional observations from a re-analysis of the deposited data

How the results depend on the processing

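The counts of 0 members at least 1.5-fold higher and 0 at least 1.5-fold lower were the same with a pseudocount of 0.1 FPKM, with no filter and under both rescalings. They were also 0 with a pseudocount of 5 FPKM, a minimum mean of 5 FPKM, without members that have a named pseudogene, and at 2-fold. These last alternatives only shrink the ratios, drop members or raise the threshold, so they could not have raised a count from 0. Under these alternatives the median log2 ratio ran from 0.06 to 0.14 for cytosolic synthetases, -0.09 to -0.04 for mitochondrial synthetases, 0.16 to 0.27 for synthesis genes and 0.08 to 0.15 for stress genes. All 129 values of single members stayed within their counting intervals when these were put on the scale with 1 FPKM added, and 0 changed sign. Against the intervals of the plain FPKM ratio, a pseudocount of 5 FPKM put CARS1 (log2 ratio 0.08) and ALDH1L2 (0.18) below the lower bound. Scaling by the median of ratios moved the median of all expressed genes by 0.03. No paired analysis was possible because each group has 1 library, and no library could be left out. DDIT3, FARS2, CARS1, NARS2 and ATF5 rested on few fragments.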
